A study of Homo sapiens with 10 samples.

Results

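The Rag GTPase and Ragulator genes described here are 10 genes of the lysosomal amino acid sensor: RRAGA, RRAGB, RRAGC, RRAGD, LAMTOR1, LAMTOR2, LAMTOR3, LAMTOR4, LAMTOR5 and SLC38A9. They were chosen by name from 20037 protein-coding genes, and all 10 were found in the annotation. An end of a gene below means either edge of its annotated span, which may be its transcription start. For each gene, peak summits inside it or within 1 kb of its ends were taken from 6 peak lists of human genome build hg38. The lists come from chromatin immunoprecipitation with sequencing (ChIP-seq), which locates a protein on DNA, in the prostate cancer cell line 22RV1, of human origin. The antibody is not named in the labels. The title of the series names TRIM24, which reads chromatin marks, and RB, the retinoblastoma protein.

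All cells were 22RV1 cells that had been transfected, in 3 pairs with 1 library per group. The siRNA pair was a control siRNA and an siRNA against RB1, the gene of the retinoblastoma protein. The 245-255 pair was an empty vector, EV(245-255), and a plasmid with an HA-tagged RB stretch of residues 245 to 255, HA-RB(245-255). The RBN pair was an empty vector, EV(RBN), and the plasmid HA-RBN, whose insert the labels call RBN without saying what it is. For HA-RB(245-255) the genotype label reads as a control while the title names the plasmid, and the title was used. With 1 library per group there was no replicate error and no test between conditions, so every difference below compares libraries. Intervals of fragments and ratios cover counting error only, and those of gene shares treat the genes as independent draws. The 4 IgG libraries of the first 2 pairs were not analysed here.

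Rag GTPases work as pairs, RagA or RagB bound to RagC or RagD, and carry the amino acid signal to mTORC1, the kinase complex that drives cell growth. Ragulator, a scaffold of the 5 LAMTOR proteins, holds the Rag pair on the lysosome surface, and SLC38A9 is a lysosomal amino acid transporter that reports arginine to it. Factors of the TFEB family are held in the cytoplasm through the Rag proteins and bind DNA at a motif built on the E-box CACGTG.

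Of the 8 genes with a start in the RefSeq promoter table, 4 carried CACGTG between 250 bp before and 50 bp after the start: RRAGB, RRAGC, LAMTOR1 and LAMTOR4. The same word stood in 10.9% of the 15843 protein-coding genes in that table, and it reads the same on both strands. The 250 bases before the start of these genes are shown because the peak summits fell in or next to them. They are RefSeq sequences of GRCh38.p14, written 5′ to 3′ on the strand of the gene, with CACGTG in capitals. RRAGB is at chrX:55717499-55717748 on the plus strand, RRAGC at chr1:38859773-38860022 on the minus strand, LAMTOR1 at chr11:72103298-72103547 on the minus strand and LAMTOR4 at chr7:100148668-100148917 on the plus strand.
RRAGB: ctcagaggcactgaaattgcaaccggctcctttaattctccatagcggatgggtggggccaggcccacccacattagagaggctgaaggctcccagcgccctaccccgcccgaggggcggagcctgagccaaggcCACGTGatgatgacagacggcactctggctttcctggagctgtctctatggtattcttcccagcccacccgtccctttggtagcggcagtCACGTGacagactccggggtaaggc
RRAGC: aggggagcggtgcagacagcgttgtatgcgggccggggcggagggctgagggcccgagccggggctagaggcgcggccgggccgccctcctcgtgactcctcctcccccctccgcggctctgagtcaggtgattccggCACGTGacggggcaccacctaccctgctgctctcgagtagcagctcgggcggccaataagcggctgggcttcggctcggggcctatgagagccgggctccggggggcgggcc
LAMTOR1: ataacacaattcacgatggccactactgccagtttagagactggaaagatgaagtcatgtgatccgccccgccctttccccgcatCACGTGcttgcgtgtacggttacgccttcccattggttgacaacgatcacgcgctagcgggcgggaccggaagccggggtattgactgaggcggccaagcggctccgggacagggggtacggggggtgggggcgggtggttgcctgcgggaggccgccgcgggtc
LAMTOR4: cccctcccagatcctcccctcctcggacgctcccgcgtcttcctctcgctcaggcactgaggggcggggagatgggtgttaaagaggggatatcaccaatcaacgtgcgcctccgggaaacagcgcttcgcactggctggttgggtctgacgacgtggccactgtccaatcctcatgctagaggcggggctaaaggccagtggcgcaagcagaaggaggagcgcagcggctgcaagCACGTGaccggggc

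RRAGB had 3 copies of CACGTG, which began 115 and 25 bp before the start and at base 8 of the transcript, and 0.170% of genes had at least 3. Its copy nearest the start was the full palindrome TCACGTGA, found in 1.65% of genes. The copy of RRAGC began 112 bp, that of LAMTOR1 165 bp and that of LAMTOR4 14 bp before the start. The copies of LAMTOR1 and LAMTOR4 lay in a shared run of 12 bases, TCACGTGCTTGC, on opposite strands. A match describes the letters and is not a bound site.

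The lists differed in how they were made, and that bears on every value. They held 21666 peaks for the control siRNA, 35285 for the RB1 siRNA, 77488 for EV(245-255), 95816 for HA-RB(245-255), 161012 for EV(RBN) and 252425 for HA-RBN. The intervals of the first 4 lists were wide, with medians from 18225 to 83581 bp, against 450 and 522 bp in the RBN pair. Each interval names 1 summit, by default of the caller its tallest stack, so a gene inside a wide interval whose summit lies elsewhere has no summit of its own here. Its stack was then no taller than that summit, and a missing summit does not show missing binding. The number of fragments stacked at a summit was worked out from the authors' fold enrichment and p-value. Enrichment below is that number over the usual background of the library, between 0.187 and 0.634 fragments per base. It is not a fold over local background, which could be higher. For the summits near the starts of LAMTOR2, LAMTOR4, LAMTOR1 and RRAGC in HA-RBN that was 4.27, 3.72, 3.07 and 1.41 fragments. The authors' folds there were 4.18, 5.29, 4.67 and 8.73, against enrichments of 33.1, 37.8, 28.4 and 31.5, so genes can rank otherwise. Near the starts of RRAGB and LAMTOR3 local background was the library value of 0.634.

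A summit was listed in or near 3 of the 10 genes for the control siRNA, against 42.3% of all protein-coding genes. The RB1 siRNA list held one for 7 genes (all genes 51.2%), EV(245-255) for 6 (71.0%) and HA-RB(245-255) for 9 (71.3%). Both lists of the RBN pair held one for all 10 genes, with 85.2% of all genes in the empty vector list and 91.8% in HA-RBN. The exact 95% Clopper-Pearson interval of each share, for instance 6.67% to 65.2% for the control siRNA, included the share of all genes. It treats the named genes as independent draws within 1 library and is a description only. RRAGB and SLC38A9 had a summit in all 6 lists, as did 29.2% of all genes.

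**Figure D1:**
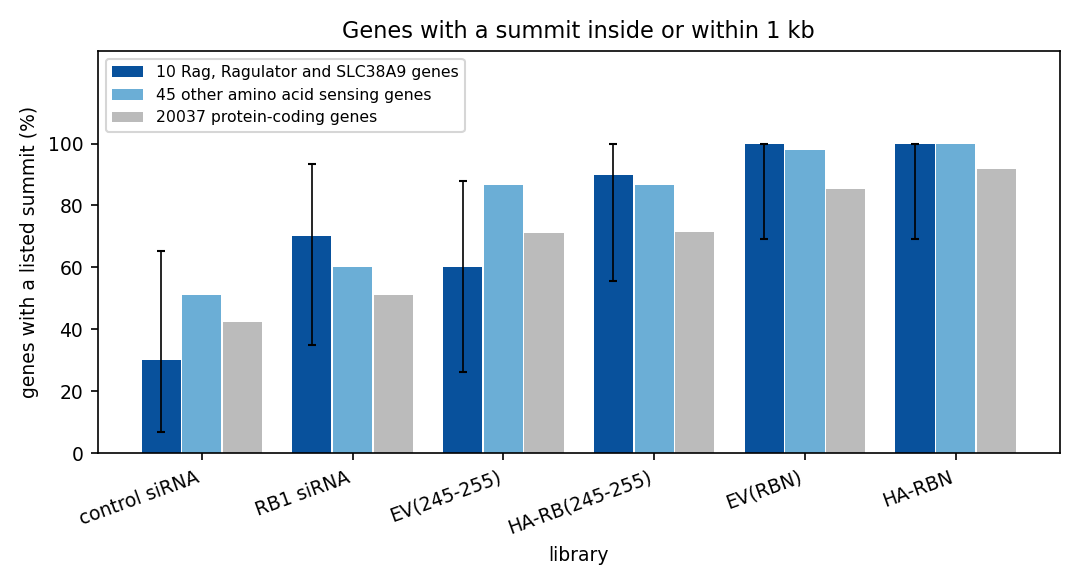
Bars give the percentage of genes with a listed summit inside the gene or within 1 kb, per library, for the 10 Rag, Ragulator and SLC38A9 genes, 45 other genes of amino acid sensing and 20037 protein-coding genes. Error bars are exact 95% binomial intervals for the 10 genes; all 3 groups of bars are lower in the control siRNA list than in HA-RBN.

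The 10 genes had 74 summits in all, of which 43 lay within 1 kb of a start or, for RRAGA and RRAGD, of a gene end. Of the 34 summits near a known start, 26 were upstream of it and 30 were within 300 bp, with a median position of -103.5 bp. Over all genes, between 54.0% (HA-RBN) and 70.0% (EV(245-255)) of start summits were upstream. The share within 300 bp ran from 59.2% (EV(RBN)) to 80.9% (RB1 siRNA) over all genes. The 31 other summits held at most 8 fragments.

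Of the 8 genes with a known start, 3 had a start summit for the control siRNA (all genes 30.7%), 4 for RB1 siRNA (36.6%) and 5 for EV(245-255) (46.9%). The start was listed in 7 of the 8 for HA-RB(245-255) (47.1%), in all 8 for EV(RBN) (57.0%) and in 7 for HA-RBN (71.8%), where SLC38A9 was the gene left out. The exact 95% Clopper-Pearson interval of the share was 47.3% to 99.7% for HA-RB(245-255), which starts just above the all-gene share. For EV(RBN) it was 63.1% to 100%, above that share, and in the other 4 lists it included it. These intervals treat 8 genes chosen by name as independent draws within 1 library. They make no allowance for the number of lists, so they are descriptions, and an excess at these genes was not tested.

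**Figure D2:**
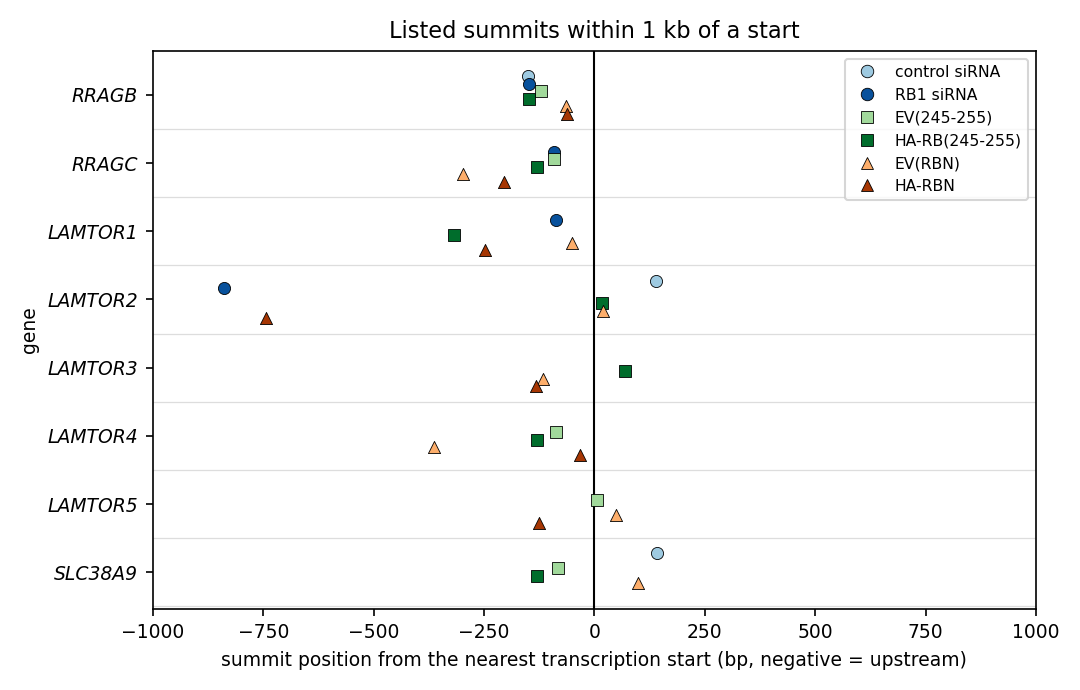
Each point is a listed summit within 1 kb of a transcription start, by gene and library, at its distance from the nearest start in bp (negative is upstream). The 6 summits of RRAGB lie between -150 and -62 bp, while those of LAMTOR2 fall into a set at -838 and -743 bp and a set from 18 to 139 bp.

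RRAGB encodes RagB, the close relative of RagA that pairs with RagC or RagD. The gene (ID 10325, chrX:55717749-55758774) was the only one of the 8 with a start summit in all 6 lists, which 14.5% of all genes had. Its start held 11 fragments with the control siRNA and 13 with RB1 siRNA, 11 with EV(245-255) and 13 with HA-RB(245-255), and 4 with EV(RBN) and 6 with HA-RBN. In that order the enrichment was 26.6, 24.1, 58.7, 52.0, 10.9 and 9.46, so the libraries of a pair lay close together and the RBN pair was lowest. The median start summit over all genes was lowest in the RBN pair too, with enrichments of 60.5, 52.0, 64.0, 48.0, 13.6 and 17.3. All 6 summits fell within 88 bp, and those of the control siRNA, RB1 siRNA and HA-RB(245-255) libraries within 1 bp of each other at 150 or 149 bp before the start. The summits of EV(RBN) and HA-RBN, 65 and 62 bp before the start, lay between the upstream copies of CACGTG printed above.

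The 3 genes whose 6 enrichment values were most like those of RRAGB, of 2304 compared, were LPIN2, EFCAB5 and HS1BP3. Their root mean square distances on the log2 scale were 0.123, 0.233 and 0.270. LPIN2 held 10, 12, 11, 11, 4 and 6 fragments in the same order of libraries. Likeness over 6 libraries describes the pattern only.

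RRAGA encodes RagA, the form of this Rag that most tissues use. The gene (ID 10670, chr9:19049427-19051025) had a summit near its lower end in 5 lists, all between 290 bp outside and 53 bp inside it. RB1 siRNA gave 14 fragments there (enrichment 25.99). The 245-255 pair gave 9 for its empty vector (48.0) and 10 for the HA-RB plasmid (40.01), and the RBN pair gave 3 for its empty vector (8.18) and 10 for HA-RBN (15.8). EV(RBN) also listed 2 fragments at 666 bp inside the gene. In the control siRNA list RRAGA lay in an interval of 220206 bp whose summit, 180932 bp away, held 24 fragments. The 5 summits near the lower end lay 59 to 202 bp from the end of the neighbouring gene SAXO1, so the lists do not assign them to 1 gene.

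RRAGC encodes RagC, whose nucleotide state decides whether mTORC1 and TFEB are recruited. The gene (ID 64121, chr1:38838198-38859772) had the largest listed stacks among the 4 Rag genes. Its start held 30 fragments in RB1 siRNA (exact Poisson 95% interval 20.2 to 42.8), 34 with EV(245-255) (23.5 to 47.5) and 25 with its HA-RB partner (16.2 to 36.9). EV(RBN) gave 5 (1.62 to 11.7) and HA-RBN gave 20 (12.2 to 30.9). The enrichment was 55.7, 181, 100.03, 13.6 and 31.5 in that order, highest in EV(245-255), where the summit stood above 86.7% of all start summits of the list.

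The RB1 siRNA and EV(245-255) summits of RRAGC were at the same base, 91 bp before the start, and that of HA-RB(245-255) was 131 bp before it, so these 3 lay on either side of the CACGTG at 112 bp. Those of EV(RBN) and HA-RBN were 298 and 204 bp before the start. Inside RRAGC, EV(RBN) listed 4 fragments at 1220 bp and HA-RBN 2 at 5751 bp from the start. All 5 start summits were within 177 bp of the edge of RRAGC-DT that faces the RRAGC start. RRAGC-DT is a divergent long non-coding RNA. In the control siRNA list the start of RRAGC lay in an interval whose summit, 13592 bp away, held 24 fragments, so that list set no more than this upper limit.

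RRAGD encodes RagD, which shares the role of RagC and is itself a known target of TFEB-family factors. The gene (ID 58528, chr6:89364616-89412273) had summits just beyond its upper end in 3 lists. RB1 siRNA held 22 fragments 44 bp beyond it (enrichment 40.8), HA-RB(245-255) 7 at 64 bp (28.0) and HA-RBN 10 at 244 bp (15.8). EV(245-255) had no interval over this end, and EV(RBN) listed only summits of 3 and 2 fragments inside the gene. The control siRNA interval over RRAGD had its summit of 24 fragments 59482 bp from the upper end.

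**Figure D3:**
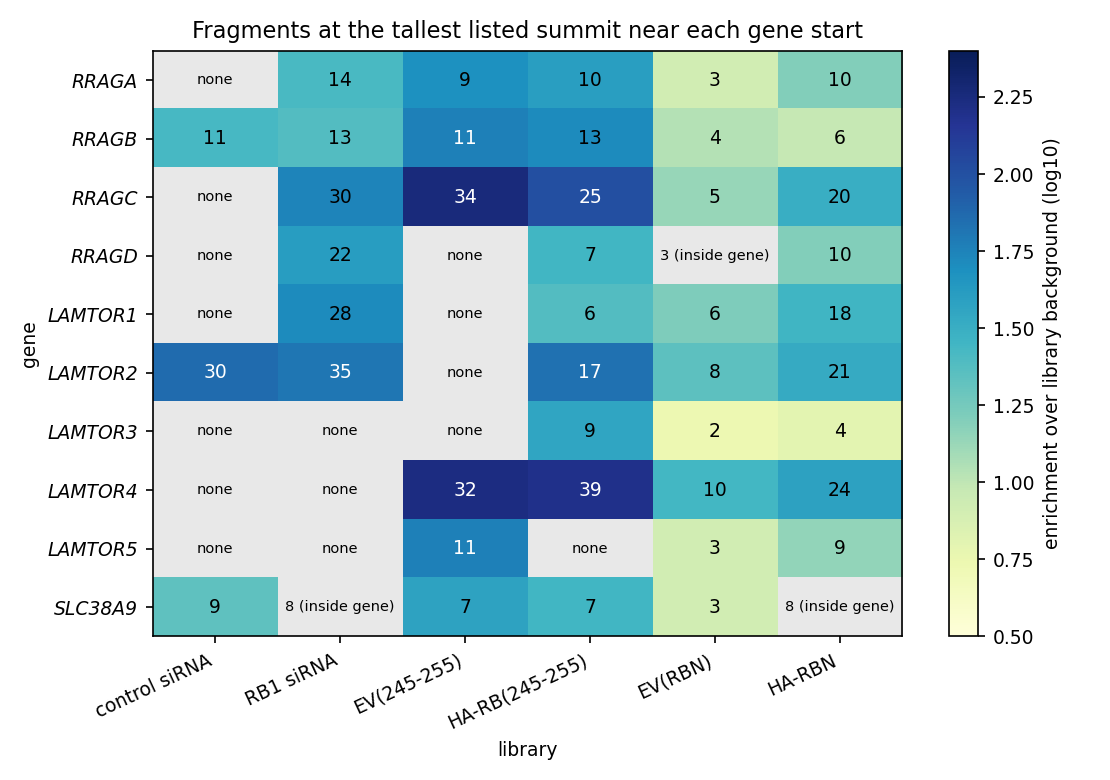
Each cell gives the fragments at the tallest listed summit within 1 kb of a start (for RRAGA and RRAGD, of a gene end), by gene and library, and its colour the enrichment over the library background on a log10 scale. Grey cells have no such summit, with the tallest stack inside the gene where there is one; RRAGC and LAMTOR4 have the darkest cells, with up to 34 and 39 fragments.

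LAMTOR1 encodes the lipid-anchored subunit that ties Ragulator to the lysosome membrane. The gene (ID 55004, chr11:72097292-72103297) lies inside the annotated span of LRTOMT. Its start held 28 fragments in RB1 siRNA (enrichment 52.0), 6 with HA-RB(245-255) (24.0), 6 with EV(RBN) (16.4) and 18 with HA-RBN (28.4). Among all start summits of the same list, these stacks stood at percentiles 49.5, 22.4, 54.7 and 69.6 in that order. The control siRNA and EV(245-255) lists had LAMTOR1 in intervals whose summits lay 316089 and 22517 bp away with 149 and 31 fragments, which limits its level there only loosely. The summits fell between 317 and 51 bp before the start, around the CACGTG at 165 bp. A second position 4243 to 4650 bp inside the gene held 4 fragments in EV(RBN) and 8 in HA-RBN.

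LAMTOR2 and LAMTOR3 encode the pair of subunits, also known as p14 and MP1, that additionally scaffolds MEK and ERK kinases. LAMTOR2 (ID 28956, chr1:156054782-156058506) had summits at 2 positions near its start, and EV(RBN) listed 5 more fragments 3600 bp inside it. One set lay at the start: 30 fragments at 139 bp inside in the control siRNA library (enrichment 72.6), 17 at 18 bp in HA-RB(245-255) (68.0) and 8 at 20 bp in EV(RBN) (21.8). The other set lay upstream: 35 fragments at 838 bp before the start in RB1 siRNA (65.0) and 21 at 743 bp in HA-RBN (33.1).

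The upstream summits of LAMTOR2 were 146 and 241 bp from the end of UBQLN4, a ubiquitin-binding shuttle protein gene on the other side of the shared stretch. In both libraries the LAMTOR2 start lay inside the same interval, so its own stack was at most as tall. In the control siRNA and EV(RBN) libraries the tallest stack was thus at the LAMTOR2 start, and in RB1 siRNA and HA-RBN nearer UBQLN4. HA-RB(245-255), also a treated library, went the other way, with its summit 18 bp inside LAMTOR2. The interval of each of these libraries covered both positions and named only the taller stack. The height of the lower stack is not known, so a small difference in counts could move the summit. A switch of position with treatment was not tested. EV(245-255) had no interval over the start.

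LAMTOR3 (ID 8649, chr4:99878336-99894546) had the lowest start stacks of the 5 Ragulator genes in the RBN pair. Its start held 9 fragments in HA-RB(245-255) (enrichment 36.0), 2 with EV(RBN) (5.46) and 4 with HA-RBN (6.31). The other 3 lists had it in intervals whose summits, 55874 bp or more away, held 42 fragments for the control siRNA, 61 for RB1 siRNA and 34 for EV(245-255). EV(RBN) had a taller stack, of 5 fragments, deep inside LAMTOR3, 14630 bp from the start.

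LAMTOR4 encodes a subunit of the Ragulator core. The gene (ID 389541, chr7:100148918-100154203) had the tallest listed stack of the 10 genes in 3 lists. These were HA-RB(245-255) with 39 fragments (27.7 to 53.3), EV(RBN) with 10 (4.80 to 18.4) and HA-RBN with 24 (15.4 to 35.7). In EV(245-255) it held 32 (21.9 to 45.2), next to the 34 of RRAGC. The enrichment of LAMTOR4 was 156, 27.3, 37.8 and 171 in that order, above 90.9%, 78.7%, 79.7% and 84.9% of all start summits of those lists.

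In HA-RBN the summit of LAMTOR4 was 32 bp before the start, close to the CACGTG at 14 bp, and in EV(245-255), HA-RB(245-255) and EV(RBN) it was 86, 131 and 363 bp before it. For the control siRNA and RB1 siRNA the gene lay in intervals whose summits, 47582 and 47539 bp away, held 259 and 234 fragments. The level of LAMTOR4 in these 2 lists could not be read. EV(RBN) also listed 6 fragments past the far end of LAMTOR4, 534 bp from the end of TRAPPC14.

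LAMTOR5 encodes the subunit also known as HBXIP. The gene (ID 10542, chr1:110401253-110407924) held 11 fragments in EV(245-255) (enrichment 58.7), 3 with EV(RBN) (8.18) and 9 with HA-RBN (14.2). The summits lay from 125 bp before to 48 bp after a start, next to the antisense gene LAMTOR5-AS1. The control siRNA list had no interval over its starts. RB1 siRNA and HA-RB(245-255) had it in intervals whose summits held 159 and 47 fragments, 68362 bp or more away.

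SLC38A9 (ID 153129, chr5:55625845-55712335) was the longest of the genes, at 86491 bp, and had the most summits away from a start. Its outer start held 9 fragments in the control siRNA library (enrichment 21.8), 7 in EV(245-255) (37.3), 7 in HA-RB(245-255) (28.0) and 3 in EV(RBN) (8.18). In the RB1 siRNA list the only summit lay 56787 bp downstream of the inner start, with 8 fragments (14.9). Its interval covered the starts, so the outer start held no more than 8. HA-RBN had no interval over the starts and its tallest stack, of 8 fragments (12.6), lay 3539 bp before the inner start. A position deep inside SLC38A9, spread over 663 bp, was listed in 4 libraries, EV(245-255), HA-RB(245-255), EV(RBN) and HA-RBN.

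SLC38A9 and LAMTOR2 shared the longest common run among the 28 pairs of promoters, 14 bases. It is shown with its surroundings because some of the start summits lay on or beside it. The RefSeq GRCh38.p14 sequence is on the strand of each gene, with the shared bases in capitals. LAMTOR2 is at chr1:156054744-156054783 (plus strand) and SLC38A9 at chr5:55712401-55712440 (minus strand), where the run is on the opposite strand.
LAMTOR2: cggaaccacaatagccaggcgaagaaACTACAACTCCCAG
SLC38A9: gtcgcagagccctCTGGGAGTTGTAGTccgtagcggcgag
In LAMTOR2 the run crossed the start, and the summits of HA-RB(245-255) and EV(RBN) lay 18 and 20 bp inside the gene. In SLC38A9 it began 92 bp before the outermost start and held the EV(245-255) summit, 83 bp before that start. The other start summits of LAMTOR2 lay 139 bp inside the gene and 838 and 743 bp before the start. Those of SLC38A9 lay 141 and 99 bp after and 131 bp before an outer start. An exact copy stood in 0.461% of genes and a copy with at most 1 mismatch in 1.77%. The run was picked from the data as the longest, so these shares are descriptions.

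Other words were searched on both strands in the same 300 bases. GGGCGG, the word of SP factors, stood in 6 of the 8 genes (64.3% of all genes), CCAAT of NF-Y in 3 (42.1%) and CCGGAAG of ETS factors in 2 (16.5%). TTCCCGC of E2F factors stood in none of the 8 (10.5%), nor did TGACGTCA of CREB and ATF factors (2.998%) or the palindromic word of NRF1 (1.99%). That these letters were not in the window says nothing on the factors.

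The siRNA pair asks whether less RB1 went with a changed pattern at these genes. RRAGA, RRAGC, RRAGD and LAMTOR1 had a summit with RB1 siRNA only, 4 of 10 genes against 18.2% of all genes, and none had one with the control siRNA only (9.32%). Another 3 genes, RRAGB, LAMTOR2 and SLC38A9, had one in both (33.0%). Each of the 4 genes lay inside a control siRNA interval, so none was without a listed interval there (0.170% of all genes had a summit with RB1 siRNA and no control interval, and 0.0998% the reverse). RRAGB was the only gene of the 8 with start summits of both libraries within 300 bp.

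The strength of such shared start sites was compared as a relative log2 ratio of enrichment, in which 0 is the median of all shared start sites of the pair with at least 20 fragments in both libraries summed. For RRAGB it was -0.02 between RB1 siRNA and control siRNA (95% interval -1.30 to 1.28). The SD over all 2617 such sites was 0.37, and 0.955% of them were above 1 and 0.459% below -1. RRAGB thus differed by less than its counting error.

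The 245-255 pair asks the same of the HA-tagged RB stretch. RRAGD, LAMTOR1, LAMTOR2 and LAMTOR3 had a summit with HA-RB(245-255) only (4 genes, all genes 11.3%), LAMTOR5 with EV(245-255) only (1 gene, 11.1%) and the other 5 in both (59.9%). Judged by intervals, only LAMTOR2 had a summit in HA-RB(245-255) with no EV(245-255) interval, which held for 0.145% of all genes. LAMTOR5 lay inside an HA-RB(245-255) interval, and 0.155% of all genes had an EV(245-255) summit with no such interval. LAMTOR2 held 17 fragments there (exact Poisson 95% interval 9.90 to 27.2). No second library of either group was there to repeat it.

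In the 5 genes shared by the 245-255 pair the relative log2 ratio was 0.22 for RRAGA (-1.24 to 1.69), 0.31 for RRAGB (-0.97 to 1.61) and -0.38 for RRAGC (-1.19 to 0.41). It was 0.35 for LAMTOR4 (-0.36 to 1.07) and 0.06 for SLC38A9 (-1.68 to 1.80). RRAGA and SLC38A9 held fewer than 20 fragments summed, so they were not among the sites that set the median. Every interval included 0, and 3.51% of the 2937 shared sites had one that did not. Of all shared sites, 1.33% had a ratio above 1 and 1.84% one below -1, and none of the 5 genes did.

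**Figure D4:**
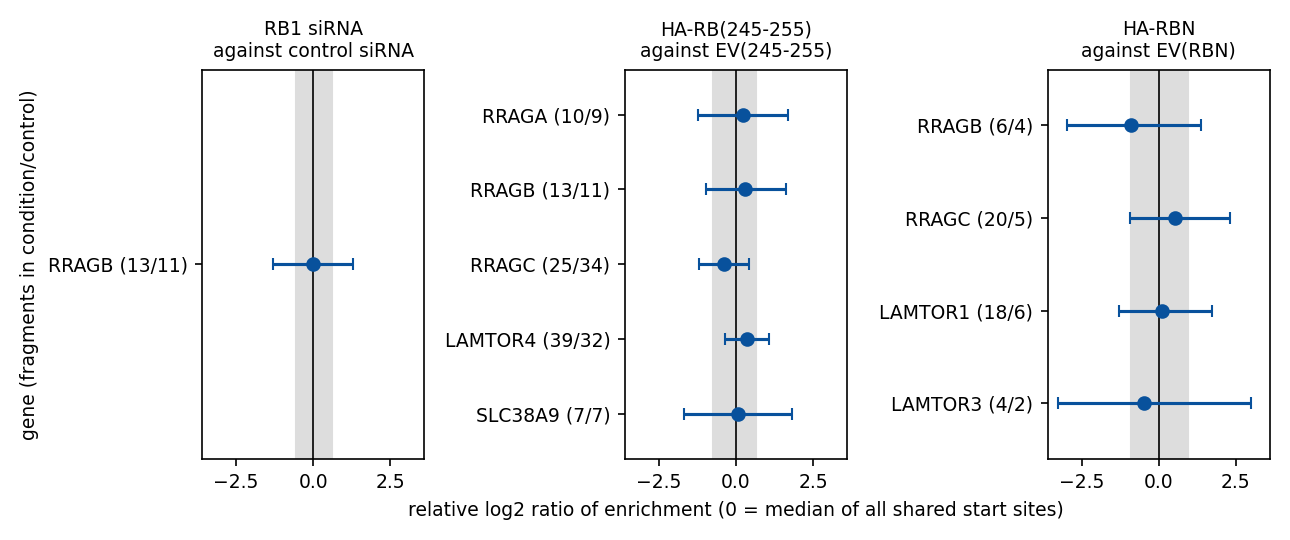
Points are relative log2 ratios of enrichment at start sites listed in both libraries of a pair, with 95% intervals for counting error and the fragments of each library in brackets; the grey band holds the middle 90% of all shared start sites. All 10 intervals include 0.

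The RBN pair asks the same of the insert called RBN. All 10 genes had a summit in both lists, as did 82.9% of all genes. None was listed in HA-RBN only (8.85% of all genes, and 8.33% with no EV(RBN) interval) or in EV(RBN) only (2.28%, and 1.88% with no HA-RBN interval). At a −log10 q of at least 5, 6 genes had a summit in HA-RBN (RRAGA, RRAGC, RRAGD, LAMTOR1, LAMTOR2 and LAMTOR4; all genes 38.2%) and none in EV(RBN) (11.1%). These 6 were thus past that limit in HA-RBN only, against 27.4% of all genes. Their −log10 q in HA-RBN was 13.7 for RRAGC, 9.22 for LAMTOR4, 6.05 for LAMTOR1, 6.04 for RRAGD, 5.92 for LAMTOR2 and 5.01 for RRAGA. The LAMTOR2 summit was 743 bp from its start and 241 bp from the end of UBQLN4. That of RRAGA was 290 bp outside the gene and 202 bp from the end of SAXO1. The first gene below the limit was SLC38A9, at 4.25. The background of the HA-RBN list was 0.634 fragments per base against 0.367 in EV(RBN), and the median start summit over all genes held 11 against 5 fragments. The share of all genes past the limit differed as well, and the part of depth in these 6 was not tested.

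At the 4 start sites shared by the RBN pair the relative log2 ratio was 0.53 for RRAGC (-0.93 to 2.30), with 20 against 5 fragments, and 0.11 for LAMTOR1 (-1.28 to 1.73), with 18 against 6. It was -0.89 for RRAGB (-2.97 to 1.38) and -0.47 for LAMTOR3 (-3.28 to 2.99), on 4 fragments or fewer in EV(RBN) and under 20 summed. No interval excluded 0 (4.17% of 3139 shared sites had one that did), and intervals this wide show neither a change nor its absence. Ratios above 1 were found at 4.24% and below -1 at 2.68% of all shared sites, and at none of these 4.

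In the siRNA and 245-255 lists no summit of the 10 genes had a −log10 q above 0.264, and none reached 5. Of all genes 0.559% did for the control siRNA, 0.309% for RB1 siRNA, 0.459% for EV(245-255) and 0.664% for HA-RB(245-255). On the fragment scale, at least 10 fragments stood at a summit of 2 genes for the control siRNA (all genes 31.3%), 6 for RB1 siRNA (37.9%), 4 for EV(245-255) (35.2%) and 5 for HA-RB(245-255) (35.0%). In the RBN pair they stood at 1 gene for EV(RBN) (16.6%) and 6 for HA-RBN (49.4%). For scale, the median start summit over all genes held 25, 28, 12, 12, 5 and 11 fragments in the order of the libraries.

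The other genes of the pathway, 45 in 8 lists, had a summit in 23 cases for the control siRNA, 27 for RB1 siRNA, 39 for EV(245-255), 39 for HA-RB(245-255), 44 for EV(RBN) and 45 for HA-RBN. Of all protein-coding genes 42.3%, 51.2%, 71.0%, 71.3%, 85.2% and 91.8% had one in these libraries, so the share was larger in the longer lists for all genes as well. The 16 genes of the v-ATPase, the proton pump that Ragulator binds, were listed 6 times with the control siRNA (all genes 42.3%) and 11 times with RB1 siRNA (all genes 51.2%), and the same background applies to the counts that follow. Of the 3 genes of the folliculin complex, which acts on RagC and RagD, 1 was listed for each of these libraries, and of the 4 TFEB-family genes 2 and 1. All 3 genes of GATOR1, which switches RagA and RagB off, were listed for RB1 siRNA and 2 for the control.

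In each list the gene with the most start fragments was picked for its values. ITFG2, a subunit of KICSTOR, which places GATOR1 on the lysosome, held 82, 117, 39, 51, 36 and 98 fragments in the order of libraries used above. SEH1L, a subunit of GATOR2, which opposes GATOR1, held 120, 126, 44, 38, 18 and 60. In these libraries the tallest listed summits of the 10 genes held 30, 35, 34, 39, 10 and 24. The 35 lay 146 bp from the end of UBQLN4 and 838 bp from the LAMTOR2 start. Genes in wide intervals with a summit elsewhere had no stack to read. For LAMTOR4 such summits held 259 fragments with the control siRNA and 234 with RB1 siRNA, so only listed summits are compared. ITFG2 and SEH1L were listed at the start in every library, as were 14.5% of all genes and, among the 8 genes here, only RRAGB. Both were picked for tall start stacks in these same libraries, so the comparison does not rank the 10 genes within the pathway.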

How the data were processed

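The submitters' processing notes name MACS2 2.1.0, Bowtie 1.1.2, Trimmomatic 0.33 and bcl2fastq 2.17 and build hg38. Caller settings: not given in the sources used here. Each of 6 deposited lists, 1 per library, carries per peak the authors' fold enrichment (a ratio to the local background), −log10 p-value, −log10 q-value and summit offset, with no header; the values match the narrowPeak layout without its name column. The deposited score column was not used. Fragments at a summit were solved from fold and p-value with a Poisson tail; the background is the most common local value, and the solution was tested on simulated data. In the first 4 lists the deposited signal is scaled, so fragments are multiples of that scale. Of the 74 summits, 12 had several solutions, and the one with the fewest fragments was used. In all 12 its local background was shared by at least 0.5% of the list. Among the 12 were LAMTOR2 (35 fragments), LAMTOR1 (28) and RRAGD (22) with RB1 siRNA. RRAGC (25) and LAMTOR2 (17) with HA-RB(245-255) were too. These are lowest readings, and their counting intervals do not cover the choice of solution. Gene positions came from RefSeq; 1 pathway symbol found no match. Summits of a pair within 300 bp were called shared. All 10 genes were named; other genes were those with the most start fragments per list or the 3 most like RRAGB. Members, lists and rules were chosen with earlier results of these data known. Python 3.11.15, numpy 2.4.6, pandas 2.3.3, scipy 1.17.1 and matplotlib 3.10.9 were used.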

Additional observations from a re-analysis of the deposited data

How the results depend on the processing

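No paired analysis was possible because each group holds 1 library. Libraries are given in the order control siRNA, RB1 siRNA, EV(245-255), HA-RB(245-255), EV(RBN) and HA-RBN. The number of the 10 genes with a summit became 0, 0, 0, 0, 0 and 6 at a −log10 q of at least 5, and 1, 4, 2, 2, 0 and 3 at 20 fragments or more. At 10 fragments or more it was 5 for HA-RB(245-255), 1 for EV(RBN) and 6 for HA-RBN. With summits inside the gene only it was 1 for RB1 siRNA, 2 for EV(245-255), 4 for HA-RB(245-255) and 4 for HA-RBN. Near a start only, where 8 genes could be counted, it was 4 for RB1 siRNA. With lists of the same length it was 5 for EV(RBN). Judged by intervals, the genes listed in 1 library of a pair became 0 for RB1 siRNA, 1 for HA-RB(245-255) and 0 for EV(245-255). With both lists at a −log10 q of at least 5 they became 0, 0 and 0, and 6 for HA-RBN. Without centring, the median log2 ratio over shared genes turned from 0.22 to -0.26 in the 245-255 pair and from -0.18 to 0.50 in the RBN pair. Another 51 alternative values of these counts and medians stayed within 1.5 times or the counting error, and all 48 alternative values for single genes did. Stacks of 2 to 10 fragments carry wide counting intervals, and the part of depth in them was not tested.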

Other observations

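The start stacks of the other amino acid sensing genes were taken from the gene with the most fragments in each of the 8 lists. NPRL2, a GATOR1 subunit, held 58 fragments with the control siRNA and 75 with RB1 siRNA, was not listed for EV(245-255), and held 25 for HA-RB(245-255), 8 for EV(RBN) and 41 for HA-RBN. SESN1, a sestrin that binds GATOR2, was not listed for the control siRNA and held 53, 19, 22, 12 and 35 in the other libraries in the same order. ATP6V0C, the proteolipid subunit of the v-ATPase, held 44, 72, 27, 36, 6 and 22. SLC66A1, which exports cationic amino acids from the lysosome, held 27, 41, 14, 13, 4 and 10.

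FNIP1, a folliculin partner, was listed in neither siRNA library and held 43 and 39 fragments in the 245-255 pair and 12 and 20 in the RBN pair. TFE3, a TFEB-family factor held in the cytoplasm by the Rag proteins, had start stacks of 14 fragments with HA-RB(245-255), 5 with EV(RBN) and 15 with HA-RBN. EV(245-255) listed a summit of TFE3 too, but not within 1 kb of its start. The share of all protein-coding genes with a summit was 42.3%, 51.2%, 71.0%, 71.3%, 85.2% and 91.8% in the same order, which is the background of the counts that follow. GATOR2 had 4, 3, 5, 4, 4 and 5 of 5 genes with a summit and KICSTOR 2, 2, 4, 4, 4 and 4 of 4. The sensors had 4, 4, 6, 4, 7 and 7 of 7, and the lysosomal transporters 2, 2, 2, 3, 3 and 3 of 3.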
